A study of Mus musculus with 18 samples.

Results

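The genes described here encode 10 E3 ubiquitin ligases, or the substrate receptors of such ligases, that are known from work on muscle wasting. They were taken as named genes (Fbxo32, Trim63, Fbxo30, Fbxo31, Fbxo40, Traf6, Nedd4, Cblb, Trim32, and Mdm2), and are 10 of the 35150 genes for which the transcript values of the whisker pad could be summed. RNA was sequenced from 18 biopsies, one of each whisker pad of 9 mice, which held skin together with muscle. The buccal and upper marginal branches of the facial nerve had been cut on the right side of every mouse (denervated), whereas on the left side the skin had been opened and closed again over an intact nerve (sham). Biopsies were taken from 3 mice at each of days 1, 3, and 7. As the lesion was always on the right, side and lesion cannot be told apart, and the mice were adults of both sexes. Each day had its own mice, and a biopsy held all cell types of the pad. Values are in TPM, a relative abundance that is corrected for transcript length, so levels can be compared between genes, and the authors had normalized them between samples.

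A ubiquitin ligase brings a protein to be degraded together with an E2 enzyme that carries activated ubiquitin, and so gives the proteasome pathway its specificity. F-box proteins (Fbxo32, Fbxo30, Fbxo31, Fbxo40) are the substrate receptors of SCF complexes, which also hold a cullin, Skp1, and a RING protein. Trim63, Trim32, Traf6, Cblb, and Mdm2 carry a RING domain, and Nedd4 a HECT domain that takes the ubiquitin before it passes it on. Fbxo32 (atrogin-1) and Trim63 (MuRF1) are the classic atrophy genes of skeletal muscle, where FoxO factors and myogenin can induce them after a nerve is cut.

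The 15 skeletal muscle markers were measured above 1 TPM in all samples, as were the 8 keratinocyte markers, so the labelled skin and muscle were both present. The biopsies differed in muscle content. Both sides of day 1 replicate 1 stood apart, with summed muscle markers of 6654 TPM on the sham and 9871 on the denervated side, against 19165 to 37478 in the other 16 samples. On the denervated side the sum averaged 16430 ± 5706 (SD, n = 3) at day 1, 22819 ± 2164 at day 3, and 28983 ± 1949 at day 7. At day 7 it was lower on the denervated than on the sham side in all 3 mice (sham, 35638 ± 2664). Of 4 neutrophil markers 1 passed at day 7, S100a8, which stressed keratinocytes also make (95.7 ± 73.8 TPM on the sham and 1621 ± 378 on the denervated side), and Csf3r (2.11 ± 1.26 and 3.14 ± 1.26) and Cxcr2 overlapped between the sides. The summed level of the 4 was 43.7 to 243 TPM against 1356 to 2648 at day 7 and 33.5 to 317 against 367 to 1433 at day 3. On the denervated side it was mostly S100a8. S100a9 overlapped between the sides, with means of 97.2 and 93.3 TPM at day 3 and 32.4 and 257 at day 7. Of 6 macrophage markers 0 passed at day 7 without the mouse in the fit and 1 passed as higher with it (median log2 difference 0.74, all 6 above 0). The part of such changes in the differences of the ligases was not tested. Estimated depth was 10300000 to 32100000 reads per sample, and the member with the fewest reads on its main transcript in any sample, Trim32, had about 34. Where a level below depends on muscle content it is also given per muscle factor, that is, divided by the geometric mean of the 15 markers, itself scaled to a geometric mean of 1 over the 18 samples. Of these markers 3 themselves differed between the sides in a fit without the mouse. Eno3 was lower at days 3 and 7 (log2 -1.15 and -1.10). At day 7 Ckm was lower (-1.12) and Neb higher (1.14). Values per muscle factor were therefore also computed from the other 12, a choice made after the data were seen. With the mouse in the fit, 0 markers passed at day 3, and 1 was higher and 3 were lower at day 7. Of the 12, Tcap, Pygm, Actn2, and Myh4 were lower without overlap at day 3. At day 7 Pygm, Atp2a1, Tnnc2, and Mybpc2 were lower and Des and Ttn higher without overlap. The 12 are thus not free of markers that differ between the sides. In such bulk samples fewer cells of a type and less RNA per cell cannot be told apart.

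The 250 bases before the annotated start were read for 9 of the 10 genes, in 11 windows (RefSeq, GRCm38.p6), and Fbxo32 has no window in that table. They were searched on both strands for the core of forkhead (FoxO) sites, GTAAACA, and for an E-box of the kind bound by myogenin and MyoD, CAGCTG. The forkhead core is in 3.17% of 32851 windows of this length in the genome and the E-box in 13.001%. Among the ligase genes, Trim63 and Mdm2 had a forkhead core, 194 and 153 bases before the start. Trim63, Mdm2, Fbxo40, Trim32, and Nedd4 had an E-box. These are the windows of the genes whose differences are described most fully below, and capitals mark the forkhead core and the E-box. Those of Trim63 (chr4:134314870-134315119, plus strand), Fbxo40 (chr16:36990468-36990717, minus strand), and Mdm2 (chr10:117710759-117711008, minus strand) lie directly before the first exon of the gene.
Trim63: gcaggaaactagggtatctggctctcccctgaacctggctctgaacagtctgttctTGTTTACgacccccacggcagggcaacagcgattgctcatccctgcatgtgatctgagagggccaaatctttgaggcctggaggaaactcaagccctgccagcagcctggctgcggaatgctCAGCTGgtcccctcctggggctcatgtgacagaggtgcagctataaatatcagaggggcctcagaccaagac
Fbxo40: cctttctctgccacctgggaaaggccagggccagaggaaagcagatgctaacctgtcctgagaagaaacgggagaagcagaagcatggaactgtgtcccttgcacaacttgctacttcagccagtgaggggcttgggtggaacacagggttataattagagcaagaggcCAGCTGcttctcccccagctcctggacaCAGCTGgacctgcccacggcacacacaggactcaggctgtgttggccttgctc
Mdm2: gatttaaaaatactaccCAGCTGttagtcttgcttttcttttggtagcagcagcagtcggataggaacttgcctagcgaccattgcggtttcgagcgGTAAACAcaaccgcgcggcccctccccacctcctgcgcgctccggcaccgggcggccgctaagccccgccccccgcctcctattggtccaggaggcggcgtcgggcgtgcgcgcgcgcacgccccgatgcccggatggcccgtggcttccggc
Trim63 had both motifs, the E-box 72 bases before its start. Fbxo40 had 2 E-boxes, 81 and 53 bases before the start, and no forkhead core in this window. AGAACA, the core of a glucocorticoid receptor element (16.1% of windows), was found in the window of Trim63, 200 bases before the start and next to the forkhead core without overlapping it, and in the second windows of Nedd4 and Fbxo40. A match is a match of letters and does not show that a factor was bound.

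All 10 genes were measured at 1 TPM or more in all 18 samples. Nedd4 had the highest level, with a median of 107 TPM (73.0 to 154), followed by Trim63 at 42.0 (11.4 to 128) and Mdm2 at 28.7 (22.3 to 38.3). Fbxo31 (24.9), Fbxo40 (17.7), and Fbxo32 (10.6) were in the middle of the order. Traf6 (7.13), Cblb (6.54), Trim32 (6.47), and Fbxo30 (5.002) were the lowest, and their ranges overlapped one another. The spread over samples was unequal. It was widest for the muscle-restricted ligases, with a coefficient of variation of 62.5% for Fbxo40, 61.4% for Trim63, and 58.3% for Fbxo32, and Fbxo31 had 49.9%. Traf6, an adaptor ligase of cytokine receptor signalling, varied by 7.92%, the least of the 10.

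**Figure D1:**
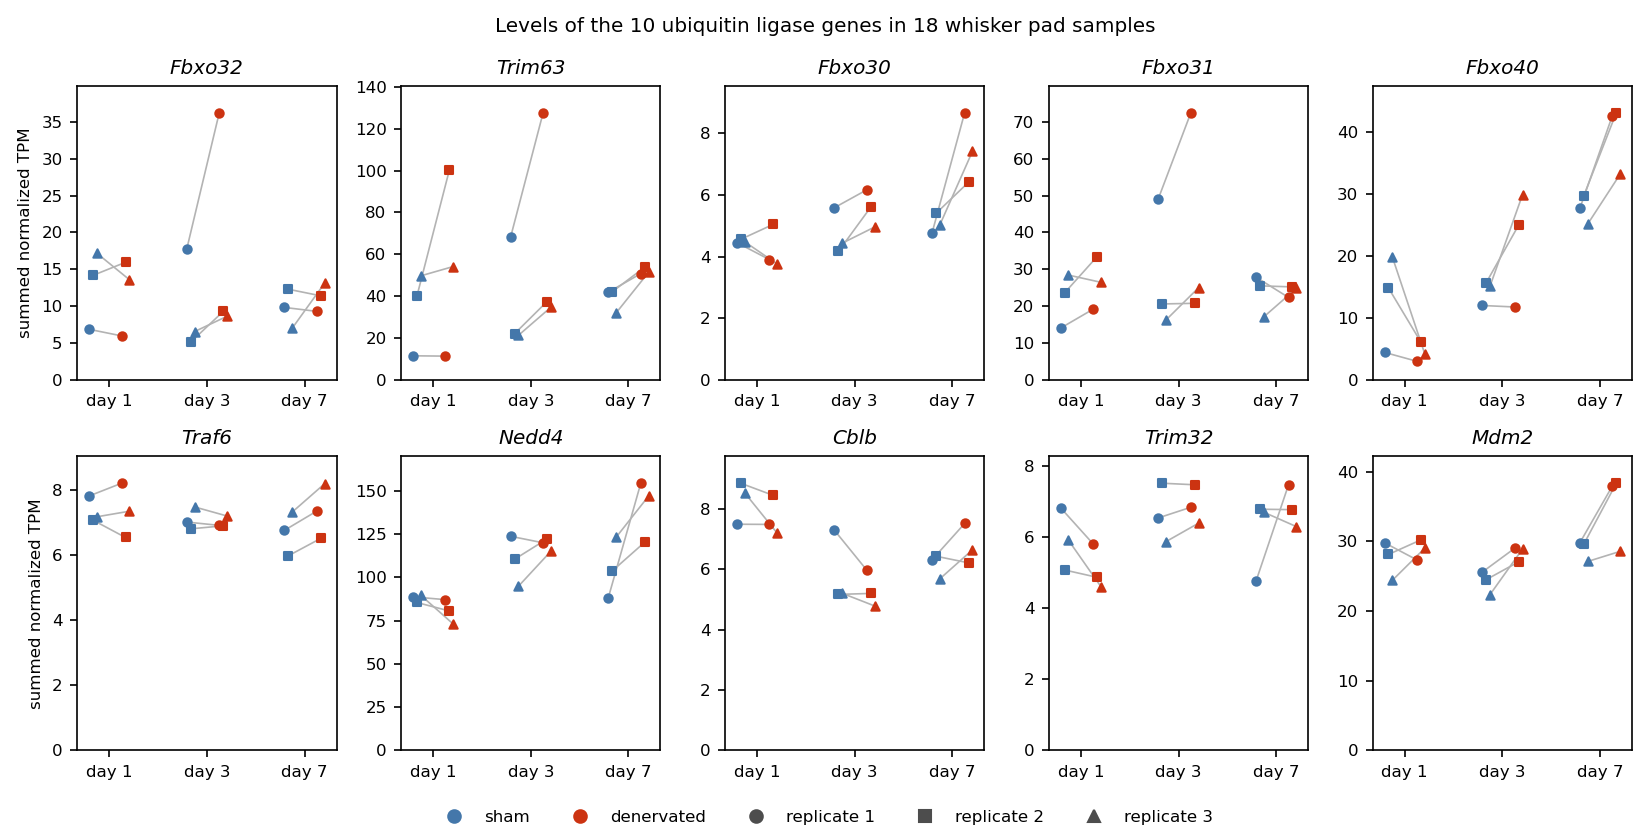
Level of each ligase gene (summed normalized TPM, linear axes from 0) at days 1, 3, and 7 in sham (blue) and denervated (red) samples, with a gray line joining both sides of a mouse and a marker shape per replicate. Day 3 replicate 1 is high on both sides for Fbxo32, Trim63, and Fbxo31, and Fbxo40 is low on the denervated side of day 1 and highest on that of day 7.

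To ask which ligases differed between the sides, denervated and sham samples were compared at each day with limma, with the P value adjusted over all genes by the Benjamini-Hochberg method. None of the 10 genes passed at an adjusted P of 0.05, that is, 0 of 10 at day 1 (0% of all genes tested passed), 0 of 10 at day 3 (1.45%), 0 of 10 at day 7 (1.53%), and 0 of 10 over all days (3.1%). At an unadjusted P under 0.05 there were 0 of 10 at day 1 (4.29% of all genes), 1 of 10 at day 3 (14.7%), 4 of 10 at day 7 (12.3%), and 2 of 10 over all days (14.7%). The median log2 difference of the 10 genes was -0.09 at day 1, 0.23 at day 3, and 0.24 at day 7, where that of all genes tested was 0.01, -0.01, and 0.04. All 10 differences were above 0 at day 7, 8 of 10 at day 3, and 3 of 10 at day 1. At each day these signs come from the same mice, so they are not independent of one another. When the mouse was entered as a block, which compares both sides of the same animal, Trim63 passed at day 3 (1.45% of all genes passed) and over all days (3.5%), and 0 of 10 passed at day 1 (0%) or day 7 (2.17%).

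**Figure D2:**
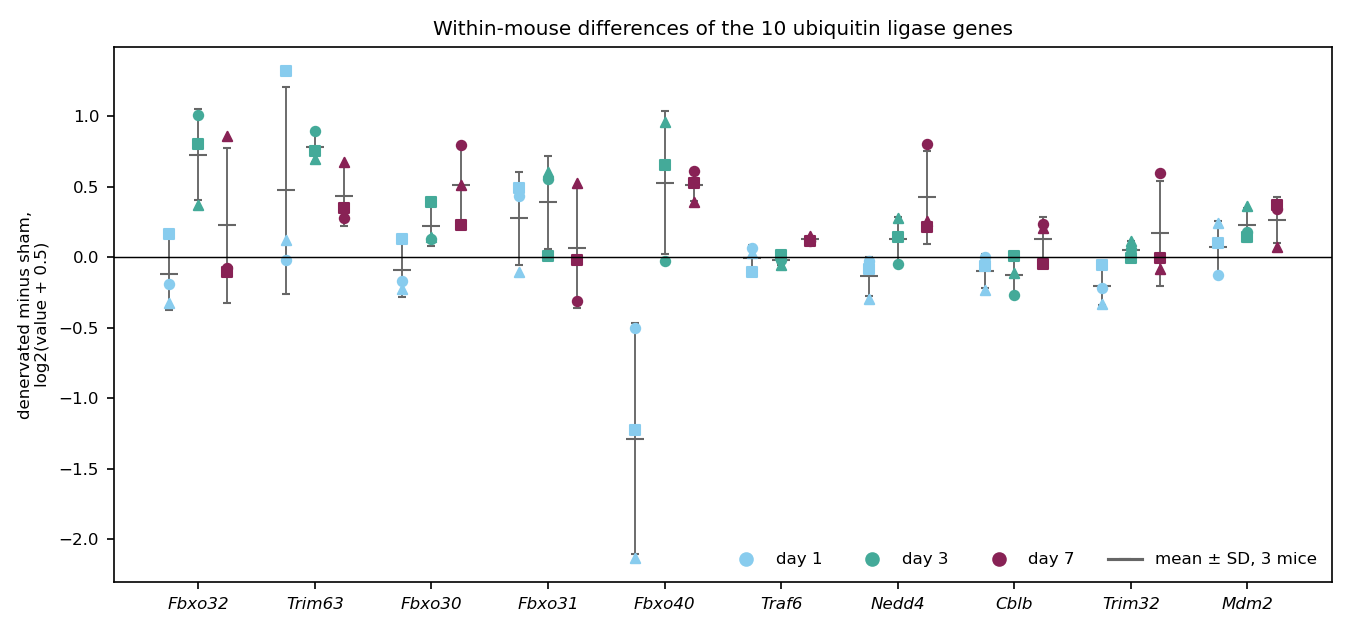
Denervated minus sham side of each mouse on the log2(value + 0.5) scale for the 10 genes at days 1, 3, and 7 (colors), with a marker shape per replicate (circle, 1; square, 2; triangle, 3) and the mean ± SD of 3 mice in gray. Trim63 lies above 0 in all 6 mice of days 3 and 7, and Fbxo40 lies below 0 in all 3 mice of day 1 and above 0 in all 3 of day 7.

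Trim63 was higher on the denervated side in 8 of 9 mice, as was Mdm2 (7.39% of all genes were higher in at least 8). Its product is known to ubiquitinate myosin heavy chain and other thick filament proteins. At day 1 it was at 11.5, 39.9, and 49.7 TPM on the sham sides of replicates 1 to 3 and at 11.4, 100.3, and 54.2 on the denervated sides. At day 3 the sham sides had 68.2, 22.0, and 21.3 TPM and the denervated sides 128, 37.4, and 34.8. At day 7 they had 41.9, 42.1, and 32.0 against 50.8, 53.8, and 51.4. The groups did not overlap at day 7, whereas at days 1 and 3 the spread between mice was wider than the difference between sides. Day 1 replicate 1 was the lowest of all mice on both sides, and day 3 replicate 1 the highest.

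The within-mouse difference of Trim63 at day 3 was 0.90, 0.75, and 0.69 on the log2 scale (mean 0.78 ± 0.11 SD, n = 3). Without the mouse in the model the adjusted P was 0.652 (limma, 95% interval of the difference -0.76 to 2.33), and with it 0.033. At day 7 the difference was 0.44 ± 0.21 (n = 3), with an adjusted P of 0.266 without and 0.164 with the block (limma). Over the 9 mice it was 0.56 ± 0.42, with P = 0.0078 in an exact two-sided sign-flip permutation test, for which the smallest possible P is 0.0039, but an adjusted P of 0.134 over all genes. Over all days the limma fit gave an adjusted P of 0.591 without the block and 0.036 with it. At day 3 the adjusted P with the block was 0.094 to 0.19 without any 1 of the 3 mice, while the difference was 0.72 to 0.83. Over all days it was above 0.05 without 7 of the 9 mice, one at a time, with 0.097 at the highest (without day 3 replicate 2). Per muscle factor, and with the block (an analysis chosen after the data were seen), the difference was 1.05 at day 3, 0.62 at day 7, and 0.79 over all days, with adjusted P values of 0.013, 0.0487, and 0.018 (limma), on a scale where the median of all genes was 0.21 to 0.24 and 3.96%, 5.71%, and 3.12% of all genes passed as higher. With the 12 markers it was 1.02, 0.58, and 0.77, and the adjusted P values were 0.0077, 0.073, and 0.020 (limma), so that the call at day 7 was lost. In the exact test on the values as deposited 2 of 10 genes, Trim63 and Mdm2, had P under 0.05 (16.2% of all genes), and 0 of 10 had an adjusted P under 0.05 (0%).

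Fbxo32, whose product targets MyoD and the translation factor eIF3f, showed no difference that passed. At day 1 it was at 6.87, 14.2, and 17.2 TPM on the sham and 5.97, 15.95, and 13.6 on the denervated sides. At day 3 it was at 17.7, 5.11, and 6.55 against 36.2, 9.29, and 8.64. At day 7 it was at 9.83, 12.3, and 7.01 against 9.29, 11.4, and 13.1. The sides overlapped at every day. At day 3 all 3 mice were higher on the denervated side, by 1.01, 0.80, and 0.37 (log2), with an adjusted P of 0.689 without and 0.112 with the block (limma). At day 7 replicates 1 and 2 differed by -0.08 and -0.11 and replicate 3 by 0.86. Over the 9 mice 5 were higher, and the mean was 0.28 ± 0.50 (log2).

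Fbxo40, a muscle-restricted F-box protein that targets the insulin receptor substrate IRS1, was lower on the denervated side at day 1 and higher at day 7, and neither difference passed over all genes. At day 1 the sham sides had 4.44, 14.8, and 19.8 TPM and the denervated sides 2.99, 6.07, and 4.13. At day 3 they had 11.99, 15.6, and 15.1 against 11.8, 24.9, and 29.9. At day 7 they had 27.6, 29.7, and 25.1 against 42.6, 43.1, and 33.2. The denervated side was the lower one in all 3 mice of day 1, by 0.50, 1.22, and 2.13 on the log2 scale, and the higher one in 2 of 3 mice at day 3 and 3 of 3 at day 7. The groups did not overlap at day 7. The mean within-mouse difference was -1.29 ± 0.82 (SD, n = 3) at day 1, 0.53 ± 0.51 at day 3, and 0.51 ± 0.11 at day 7. Without the mouse in the fit the adjusted P values were 0.999, 0.542, and 0.198 (limma). With the mouse as a block they were 0.680, 0.271, and 0.090.

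The change of the Fbxo40 difference between days was tested as an interaction. The difference at day 3 was above that at day 1 by 1.81 (log2, 95% interval 0.52 to 3.11), and that at day 7 by 1.80 (0.51 to 3.09), with adjusted P values of 0.333 and 0.479 (limma), or 0.093 and 0.159 with the block. Without day 1 replicate 1, the pair with few muscle markers, they were 2.21 and 2.19, with adjusted P values of 0.0351 and 0.0489 (1% and 0.555% of all genes passed in these fits). With all 9 mice 0 of the 10 ligase genes passed, as did 0.122% and 0.163% of all genes. At an unadjusted P under 0.05 there were 1 and 3 of 10 (9.22% and 7.14% of all genes). Between days 3 and 7 the difference moved by -0.02, and 0 of 10 genes passed (0% of all genes), with 0 of 10 at an unadjusted P under 0.05 (6.86%).

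Per muscle factor, the sham sides held a narrow range of Fbxo40 over the 9 mice, 11.4 to 18.8. The denervated sides had 7.33, 7.03, and 5.09 at day 1, all below the sham sides of that day. They had 15.5, 25.2, and 32.0 at day 3 and 32.3, 33.5, and 23.3 at day 7, at both days all above the sham sides (11.4 to 14.4 and 16.7 to 18.8). On this scale the differences were -1.07, 0.79, and 0.70 (log2) at days 1, 3, and 7, while the median of all genes was 0.23, 0.24, and 0.21 in place of 0.01, -0.01, and 0.04. With the mouse as a block as well, an analysis chosen after the data were seen, adjusted P values were 0.999, 0.045, and 0.036 (limma), and 3.96% and 5.71% of all genes passed as higher at days 3 and 7. The interaction of day 3 with day 1 then was 1.86 (adjusted P = 0.028, with 0.239% of all genes passing upward), and that of day 7 with day 1 was 1.77 (adjusted P = 0.05001). With the 12 markers the differences were -1.07, 0.76, and 0.66, with adjusted P values of 0.799, 0.041, and 0.056, so that the call at day 7 was lost, and the interactions were 1.83 and 1.73 (adjusted P = 0.024 and 0.045).

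**Figure D3:**
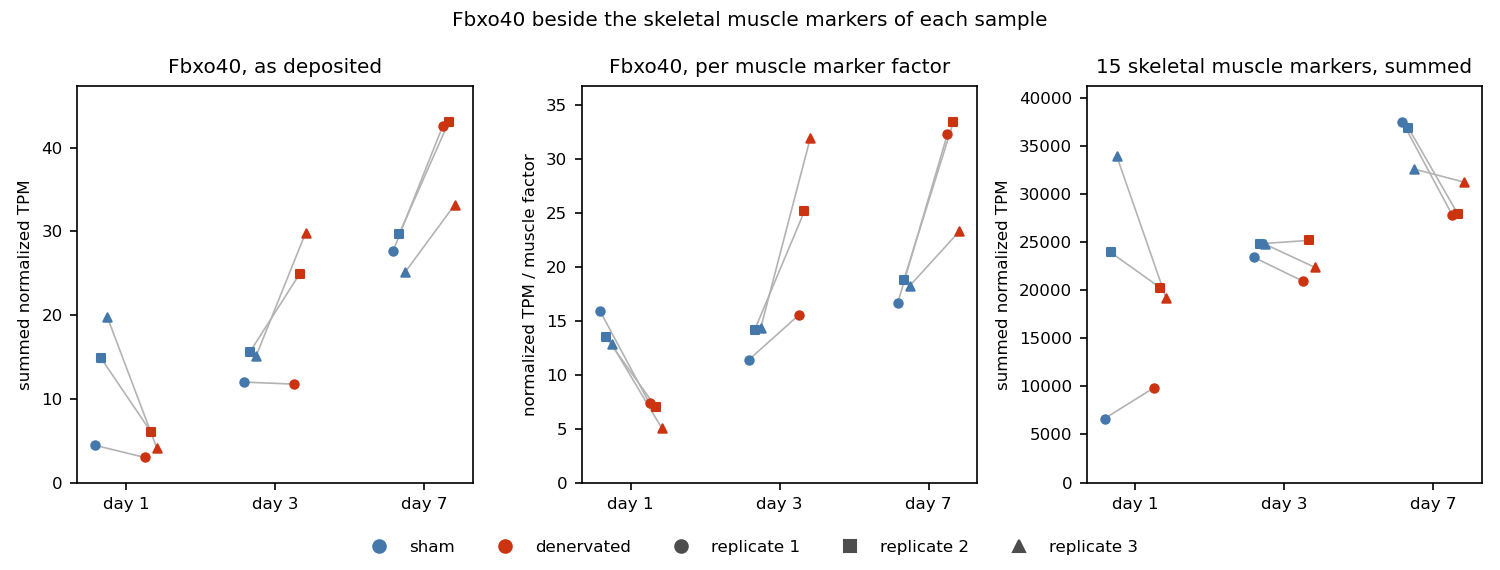
Fbxo40 as deposited (left, summed normalized TPM), Fbxo40 divided by the muscle factor of the sample (middle), and the sum of 15 skeletal muscle markers (right, summed normalized TPM) in sham (blue) and denervated (red) samples, with lines joining both sides of a mouse and a marker shape per replicate. In the middle panel the denervated samples lie at 5.09 to 7.33, below all sham samples, at day 1, and above those of their own day at days 3 and 7.

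Fbxo30 (MUSA1), an F-box gene that BMP signalling holds down in muscle, rose between days on the denervated side, as given below with its dependence on muscle content. Its sham sides stayed at 4.46 to 4.56 TPM at day 1, 4.17 to 5.59 at day 3, and 4.78 to 5.41 at day 7. The denervated sides had 3.91, 5.05, and 3.76 at day 1. In the mice of day 3 they had 6.18, 5.62, and 4.97, and in those of day 7 8.67, 6.42, and 7.42. The groups did not overlap at day 7, where the within-mouse difference was 0.51 ± 0.28 (log2, SD, n = 3). Without the mouse in the fit the adjusted P was 0.219 (limma, 95% interval 0.16 to 0.87), and with it 0.197 (0.11 to 0.91). The difference at day 7 was above that at day 1 by 0.60 (adjusted P = 0.469). Fbxo31, which targets cyclin D1, was at 14.1 to 72.5 TPM and overlapped between the sides at every day. Its highest values, 49.2 and 72.5, were both sides of day 3 replicate 1.

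Nedd4, a HECT ligase of membrane receptors and channels, had overlapping sham and denervated sides at day 1, with 88.7, 85.5, and 89.6 against 87.1, 80.5, and 73.0 TPM. At day 3 the sides had 124, 110.4, and 94.8 against 119.9, 122, and 115. At day 7 they had 88.1, 103.6, and 123 against 154, 120.3, and 147. All 3 mice were lower at day 1, by a mean of 0.14, and all 3 higher at day 7, by 0.42 ± 0.33 (log2, SD of the within-mouse differences), although the ranges of both sides overlapped. At day 7 the adjusted P was 0.371 without the mouse in the fit and 0.230 with it (limma). The difference at day 7 was above that at day 1 by 0.56 (95% interval 0.16 to 0.96, adjusted P = 0.476).

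Mdm2, the ligase of p53, was higher on the denervated side in 8 of 9 mice, by 0.19 ± 0.16 (log2, P = 0.0156 in the exact sign-flip permutation test, adjusted P = 0.175). Its levels lay close together. At day 3 the sham sides had 25.6, 24.5, and 22.3 TPM and the denervated sides 29.0, 27.1, and 28.9, without overlap. At day 7 they had 29.8, 29.6, and 27.1 against 37.9, 38.3, and 28.6. The limma fit gave an adjusted P of 0.318 at day 3, 0.54 at day 7, and 0.144 over all days. These values are summed over transcripts. Mdm2-209, annotated as a target of nonsense-mediated decay, differed by -0.0034, 0.42, and 0.30 (log2) at days 1, 3, and 7. The coding Mdm2-202 differed by 0.64, -0.16, and -0.03. Over all days they were at 0.24 and 0.15, and the coding Mdm2-201 at -0.09.

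The other 3 ligases had differences near 0 over all days. Traf6 was at 5.98 to 8.21 TPM in all samples, and over all days its difference was 0.04 (log2, 95% interval -0.09 to 0.17). For Cblb, which like Fbxo40 targets IRS1, it was -0.03 (-0.20 to 0.14), and for Trim32, a ligase of desmin and thin filament proteins, 0.01 (-0.18 to 0.20). For Trim32 this mean spans days of both signs, -0.20 at day 1, with all 3 mice lower, and 0.17 at day 7. The lowest and highest values were 4.78 and 8.85 TPM for Cblb and 4.61 and 7.52 for Trim32. The data do not exclude differences within these intervals.

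Counted over mice, 0 of 10 genes were higher in all 3 mice at day 1 (15.1% of all genes) and 4 were lower in all 3 (12.1%), namely Fbxo40, Nedd4, Cblb, and Trim32. Per muscle factor the day 1 means of Nedd4, Cblb, and Trim32 were 0.10, 0.12, and 0.0046, all under the median of all genes on that scale (0.23). At day 3, 5 were higher in all 3 mice (20.6%), namely Fbxo32, Trim63, Fbxo30, Fbxo31, and Mdm2, and 0 were lower in all 3 (21.9%). At day 7, 6 were (24.9%), namely Trim63, Fbxo30, Fbxo40, Traf6, Nedd4, and Mdm2, and 0 were lower (16.9%). Groups that did not overlap, with the denervated side higher, were those of 0 genes at day 1 (5.61%), Mdm2 at day 3 (1 of 10, 11.7%), and Trim63, Fbxo30, and Fbxo40 at day 7 (3 of 10, 10.6%). With the denervated side lower there were 0 at day 1 (3.95%), day 3 (9.82%), and day 7 (7.06%). With values per muscle factor 6 of 10 genes were higher over the 9 mice with P under 0.05 in the exact sign-flip test (19.8% of all genes), among them Fbxo32 (0.50), Fbxo31 (0.47), and Trim63 (0.79), on a scale where the median of all genes was 0.22. Their adjusted P values in that test ran from 0.1785 (Trim63) to 0.221 (Mdm2), so none passed over all genes.

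Levels were also compared between days within each side. On the denervated side 3 of 10 genes differed between days (17.1% of all genes, limma F test). Fbxo40 was higher at day 7 than at day 1 by 3.07 (log2) and at day 3 by 2.16 (adjusted P = 0.0027), Nedd4 by 0.80 and 0.57 (0.0074), and Fbxo30 by 0.76 and 0.37 (0.029). The muscle marker sum rose on that side as well, and its part in these results was not tested apart from a scaling that moves every gene. Per muscle factor Fbxo40 was higher by 2.11 at day 7 (adjusted P = 0.00095), and Nedd4 and Fbxo30 were at -0.22 and -0.19 (adjusted P = 0.603 and 0.866), where the median of all genes was -0.95 in place of 0.02. Fbxo30 did not pass without 5 of the 9 mice, one at a time, with adjusted P values of up to 0.097 (without day 1 replicate 3), while its difference was 0.65 to 0.76 in these fits. On the sham side 0 of 10 genes passed (0.0613% of all genes) and 2 of 10, Fbxo40 and Cblb, had an unadjusted P under 0.05 (14.3%). Sham Fbxo40 was higher at day 7 than at day 1 by 1.27 (adjusted P = 0.347), and per muscle factor by 0.34.

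Most of each level came from 1 transcript. For Fbxo32 and Fbxo30 it was all of the level, for Fbxo40, Traf6, Cblb, and Nedd4 94.4% to 99.3%, for Trim32 78.1%, and for Fbxo31 71.1%. For Trim32 this is a mean over samples, in which the share of Trim32-201 (3194 bases) ran from 17.1% to 100%. That of the coding Trim32-202 (3191 bases) reached 82.9%. Trim63 and Mdm2 were mixed. The coding transcript Trim63-202 made up 76.4% of Trim63 and the processed transcript Trim63-204 22.7%. Trim63-204 has 7 exons (GRCm38, GENCODE M21), starts at a first exon of its own at chr4:134319988-134320135, and lacks the first 3 exons of Trim63-202. At day 7 the coding transcript was at 27.4 ± 4.76 TPM on the sham and 46.4 ± 3.79 on the denervated side (n = 3), and Trim63-204 at 10.9 ± 2.12 and 5.02 ± 5.16. The share of Trim63-202 was 68.0% to 75.0% on the sham and 79.0% to 98.6% on the denervated side, without overlap. The other days did not share this direction: at day 3 the shares were 89.8%, 93.0%, and 75.5% against 73.6%, 79.7%, and 86.0%, lower on the denervated side in replicates 1 and 2, and at day 1 they were 62.3%, 60.5%, and 78.3% against 78.8%, 66.2%, and 57.4%. The difference of the transcript at day 7 was 0.76 (log2, adjusted P = 0.206 over transcripts), beside 0.44 for the summed gene, and at day 3 it was 0.67 beside 0.78. Mdm2-209, annotated as a target of nonsense-mediated decay, made up 63.1% of Mdm2, and the coding Mdm2-202 12.9%. Mdm2-209 lacks the 97-base exon 8 of Mdm2-202 (chr10:117695953-117696049, minus strand) and its first exon, so the promoter window shown above lies before Mdm2-202 and not before the transcript with the largest share. Of 21, 20, 20, and 19 transcripts of the 10 genes tested at days 1, 3, and 7 and over all days, 0 passed. Of all transcripts tested 0 of 31583, 97 of 32384, 129 of 33372, and 278 of 31294 did, so few were called in any set. Reads are shared between the transcripts of a gene, so how they are divided among them is an estimate.

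**Figure D4:**
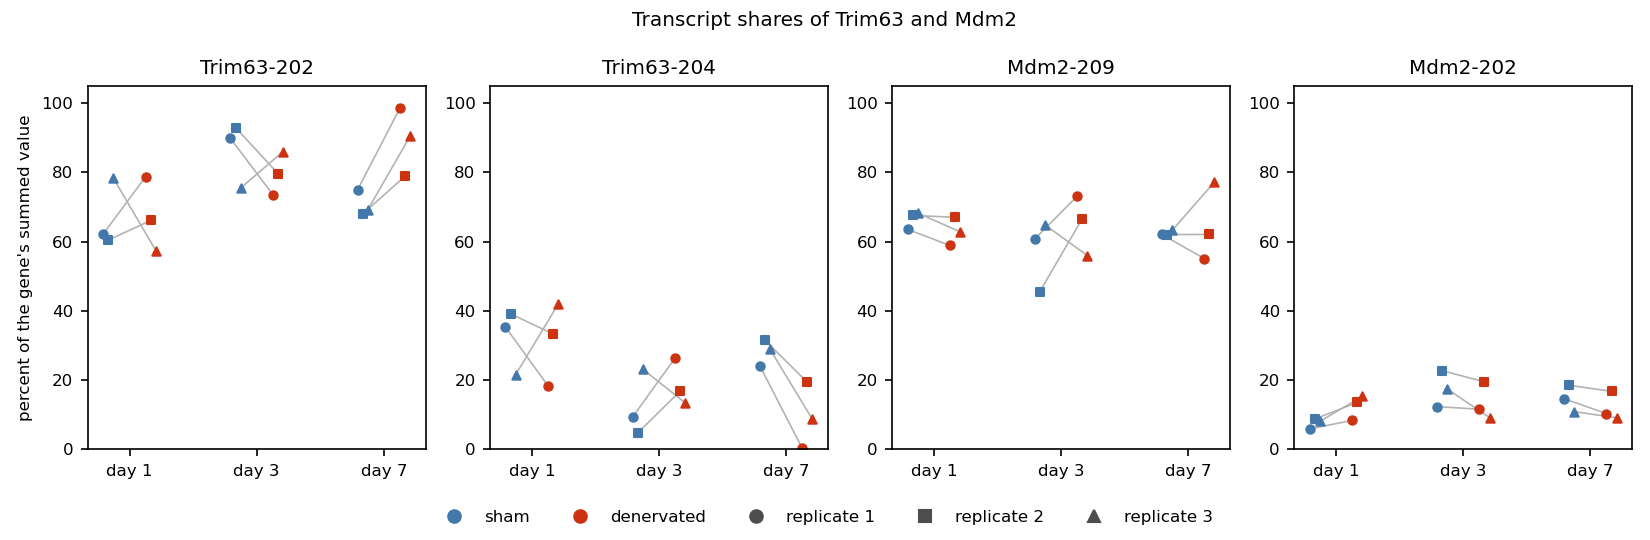
Share of the summed value of the gene (percent) taken by transcripts Trim63-202, Trim63-204, Mdm2-209, and Mdm2-202 in sham (blue) and denervated (red) samples at days 1, 3, and 7, with lines joining both sides of a mouse and a marker shape per replicate. At day 7 the share of Trim63-202 is higher on the denervated side in all 3 mice (79.0% to 98.6% against 68.0% to 75.0%).

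The within-mouse differences of some members went together. Over the 9 mice the highest correlation was that of Nedd4 with Trim32 (r = 0.90), then Fbxo30 with Nedd4 (0.88) and Fbxo30 with Trim32 (0.81), and the lowest that of Trim63 with Traf6 (-0.64). The points share their libraries and days, and these values are given as description. The genes most like Fbxo32 were Rps6-ps3 (r = 0.97), Smtnl2 (0.93), Mcts2 (0.92), Cfap74 (0.92), and Ccdc162 (0.92), and those most like Trim63 were Gm3200 (0.95), Trim8 (0.88), and Rpl35a-ps2, Rpl35a-ps3, and Rpl35a-ps4 (0.88 each). The 3 Rpl35a pseudogenes had identical values and are near-identical copies, so their reads cannot be told apart. Several of these genes were low: Rps6-ps3 (0.74 to 3.12 TPM), Cfap74 (0.49 to 2.85), Gm3200 (0.67 to 4.14), and the Rpl35a pseudogenes (0.50 to 2.99). Each list is the top of the 14757 genes tested over all days, ranked over only 9 mice.

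The rest of the pathway was read from lists, and the counts are of genes that passed at an adjusted P of 0.05 (limma). Of all genes tested 0% passed at day 1, 1.45% at day 3, 1.53% at day 7, and 3.1% over all days. The lists were chosen with earlier results of these data known, so their counts are given as description. Of 6 ubiquitin and E1 genes, 12 E2 enzymes, and 8 core SCF subunits, 0 passed at any single day, with list medians of -0.01 to 0.20 (log2) at single days, where the medians of all genes were -0.01 to 0.04. The nearest to passing were Ube2v2 among the E2 enzymes (0.50 at day 3, adjusted P = 0.099) and Skp1a, the SCF adaptor, among the SCF subunits (0.27 at day 3, 0.312). Of 12 deubiquitinases 1 rose at day 7, Uchl1 (1.37, adjusted P = 0.041), from 7.13 ± 1.83 to 19.2 ± 4.23 TPM (n = 3), and 11 of 12 were above 0 at day 3 (median 0.07) and at day 7 (median 0.29).

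Of 30 other ligases and substrate receptors known from muscle, 1 rose and 1 fell at day 3 and 1 rose and 1 fell at day 7, with medians of -0.05 and 0.08 (log2) over the list, and over all days 1 rose and 4 fell. Asb5, a substrate receptor of cullin complexes, rose from 36.1 ± 5.18 to 125.5 ± 2.37 TPM at day 3 (log2 1.79, adjusted P = 0.0022) and from 60.9 ± 6.02 to 108.3 ± 1.57 at day 7 (0.83, 0.020; n = 3). Asb12, of the same family, fell from 10.01 ± 1.35 to 2.05 ± 0.279 TPM at day 3 (-2.04, adjusted P = 0.0037). Kbtbd13, a cullin-3 adaptor known from nemaline myopathy, fell from 4.55 ± 0.467 to 1.21 ± 0.050 TPM at day 7 (-1.56, adjusted P = 0.0091). For these 3 genes the sides did not overlap at either day 3 or day 7.

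Of 12 regulators of the ligases tested, 3 rose at day 3 (1.45% of all genes passed) and at day 7 (1.53%) and 0 fell. The list medians were 0.02 and 0.19 (log2). This list too was chosen with earlier results of these data known, so its counts are description. Myogenin (Myog), which can bind the promoters of Trim63 and Fbxo32, rose from 4.65 ± 2.15 to 181 ± 17.1 TPM at day 3 (log2 5.21, adjusted P = 0.00089) and from 4.56 ± 1.88 to 99.9 ± 9.51 at day 7 (4.37, 0.0021). Hdac4, a deacetylase that is known to raise myogenin in denervated muscle, rose by 1.25 and 1.16 (0.017 and 0.0089), and Smad3, of TGF-β signalling, by 1.03 and 1.05 (0.0087 and 0.012). The 10 ligase genes shifted by a median of 0.23 and 0.24 at the same days. At day 1, 0 of 12 passed, although Myog was at 1.38 ± 0.834 TPM on the sham and 31.5 ± 17.99 on the denervated side without overlap (log2 4.05, adjusted P = 0.281). Foxo3 (-0.27 and 0.21) and Klf15 (0.02 and 0.04) did not pass at days 3 and 7. Over all days 5 of 12 passed (3.1% of all genes). The further ones were Foxo1 (0.30, adjusted P = 0.047, limma) and Stat3 (0.44, 0.0034), and these last 4 genes are named here after their values were seen. Of the known substrates of the 10 ligases, Myod1 rose at day 3 (3.88, adjusted P = 0.0072) and day 7 (1.49, 0.020), and muscle creatine kinase (Ckm) fell at day 7 (-1.12, 0.010). The other substrates tested, 12 at day 3 and 12 at day 7, did not pass, and the list medians were 0.04 and 0.17.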

How the data were processed

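RNA from 18 biopsies (9 mice, a denervated and a sham side each) had been sequenced on a NextSeq 500 (TruSeq v2). The authors demultiplexed the reads with bcl2fastq (version 2.17.1.14), removed duplicates with ParDRe, trimmed with Fastp, estimated transcript abundances with kallisto (version 0.43.1), and deposited 1 table of TPM values normalized between samples by Sleuth. Because this normalization lets the sums differ (833186 to 1143840 per sample), these deposited values were treated as a normalized signal per transcript and not as counts. Of 113194 transcripts, 98.5% (99.5% of the summed values) were matched to GENCODE M21 (GRCm38), and values were summed per gene. The authors had used ENSEMBL GRCm38 cDNA sequences for kallisto.

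Genes that reached a value of 1 in 47% or more of the samples compared were tested on log2(value + 0.5) with limma (version 3.58.1, R version 4.3.3, moderated with a mean-variance trend), with Benjamini-Hochberg adjustment over all genes and a threshold of 0.05. Fold changes are on the log2(value + 0.5) scale, which understates the change of low genes. Following the study's design the mouse was not in the main model. The fit with the mouse as a block is the alternative, since both sides come from the same animal, and the deviations of both sides from their group means correlated in each of the 9 mice (r = 0.13 to 0.51). Differences over the 9 mice were also tested with an exact two-sided sign-flip permutation test. With 3 against 3 samples an exact test cannot go below 0.1. Alternatives were other pseudocounts, filters, and scalings between samples, no trend, all 18 samples in 1 fit, the most abundant transcript in place of the sum, and leaving out each mouse. The fits were tested on simulated data.

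The members and lists were chosen with earlier results of these data known. All 10 members are named, and from each pathway list up to 3 genes with an adjusted P under 0.05 at a single day, or the one nearest to it. The result of 1 listed gene is not reported here. For Fbxo32 and Trim63 the 5 genes with the highest correlation of within-mouse differences are named. Samples were grouped by the labelled side and day, and day 7 columns were matched to samples by the run number in their titles. Depth was estimated from the steps between low values, which 66.9% to 83.3% of these met within 0.1 (20% if spread evenly), so it is approximate and no interval was drawn from it. Mice are separate animals, and each side of each was sampled once.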

Additional observations from a re-analysis of the deposited data

Results flagged for a closer look

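For Fbxo40 and Nedd4 the difference between sides changed direction between days: all 3 mice were lower on the denervated side at day 1 and all 3 higher at day 7. The change of the difference from day 1 to day 7 was 1.80 for Fbxo40 (log2, adjusted P = 0.479, limma) and 0.56 for Nedd4 (adjusted P = 0.476), so neither passed over all genes. Per muscle factor the Nedd4 difference was 0.10 at day 1 and 0.62 at day 7, where the medians of all genes were 0.23 and 0.21. Groups of 3 samples were not tested for single outlying samples.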

How the results depend on the processing

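The number of the 10 genes that passed was the same at days 1 and 7 under each alternative listed with the methods. With the block and muscle scaling together, chosen after the data were seen, Trim63 and Fbxo40 passed at day 7 (adjusted P = 0.0487 and 0.036, limma). With the 12 markers neither passed at that day (0.073 and 0.056). With the mouse as a replicate block, 1 passed at day 3 and 1 over all days in place of 0, Trim63 in both, and the block changed no other call of these genes. Leaving out a mouse, 0 to 1 passed in the interactions of day 3 and day 7 with day 1 (Fbxo40, without day 1 replicate 1) and 2 to 4 on the denervated side between days. In the sign-flip test 2 to 3 then had an unadjusted P under 0.05. Scaling to muscle markers moved the median of all genes to 0.23, 0.24, and 0.21 at days 1, 3, and 7, to 0.22 over all days, and to -0.95 on the denervated side at day 7 against day 1. The sign changes listed next are to values between 0 and that median. It gave 6 with an unadjusted P under 0.05 in the sign-flip test and turned these differences positive: Fbxo32 0.11, Fbxo30 0.11, Traf6 0.21, Nedd4 0.10, Cblb 0.12, and Trim32 0.0046 at day 1, Traf6 0.23 and Cblb 0.12 at day 3, and Fbxo40 0.14 (0.14 also with the block, and 0.12 with the block and the 12 markers) and Cblb 0.18 over all days. It turned Fbxo30 (-0.19), Nedd4 (-0.22), and Trim32 (-0.56) negative on the denervated side at day 7 against day 1. There Cblb passed at -1.14 (adjusted P = 0.033, limma F test), near the median of all genes of -0.95 on that scale. Cblb also passed with median-of-ratios (-0.23, 0.042) and equal-sum scaling (-0.34, 0.024). With the other scalings the reversals were of differences near 0. Traf6 at day 1 was 0.0082 with median-of-ratios and 0.0091 with equal-sum scaling, and Trim32 was -0.00076 at day 3 with equal-sum scaling and -0.0012 (median-of-ratios) and -0.0041 (equal-sum) over all days. With the most abundant transcript, Trim32 was at 0.79 at day 7 (adjusted P = 0.677, limma), beside 0.17 for the summed gene. At day 1 Trim32 was at 0.18, beside -0.20 for the summed gene. Traf6 was at 0.012 and 0.014 at days 1 and 3, Mdm2 at -0.0034 at day 1, and Fbxo31 at -0.092 at day 7. Leaving out 1 mouse at a time, the range spanned 0 for Traf6 (-0.037 to 0.049) and Mdm2 (-0.010 to 0.17) at day 1, for Trim32 (-0.043 to 0.30), Fbxo32 (-0.091 to 0.39), and Fbxo31 (-0.16 to 0.25) at day 7, and for Fbxo40 (-0.21 to 0.18) and Trim32 (-0.065 to 0.051) over all days. The cause was not tested. Counts over all genes moved more. At day 1, 0 passed, 1 with any value above 0 kept, 2 with equal-sum scaling, 6 with no trend, 16 with muscle scaling, 30 with all 18 samples in 1 fit, and 0 to 4 without 1 mouse. At day 3, 217 passed, 336 with muscle scaling, 329 with all 18 samples, and 0 to 133 without 1 mouse. At day 7, 230 passed (1 to 127 without 1 mouse), and over all days 457 (156 with muscle scaling, 227 to 692 without 1 mouse). In the interaction of day 3 with day 1, 18 passed, 68 with the block, 0 with muscle scaling, and 6 to 148 without 1 mouse. In that of day 7 with day 1, 24 passed, 15 with equal-sum and 1 with muscle scaling, and 0 to 82 without 1 mouse. In that of day 7 with day 3, 0 passed, and 1 with the block or a pseudocount of 1. Between days, muscle scaling gave 125 in place of 9 on the sham side (2 to 18 without 1 mouse) and 6147 in place of 2510 on the denervated side (1065 to 2713 without 1 mouse). Trim32 had the fewest reads on its main transcript in any sample, about 34. The share of that transcript ran from 17.1% to 100% over samples. The number thus depends on how reads were divided between transcripts as well as on depth.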
